A study of Homo sapiens with 14 samples.

Results

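The 10 genes described here encode AP-1 and immediate-early transcription factors. They are the FOS-family genes FOS, FOSB, FOSL1 and FOSL2, the JUN-family genes JUN, JUNB and JUND, the AP-1-related ATF3, and the zinc-finger genes EGR1 and EGR2. They were taken by symbol, and all 10 were found among the 54628 gene symbols of the 14 RNA-seq libraries. By their titles the libraries came from IMR90 cells, an established line of human lung fibroblasts, at passage 5. All 14 were total RNA libraries read from both ends, and each of the 7 groups held 2 of them. Untreated cells without knockdown (WT) and untreated cells with an siRNA against HMGB2 (siHMGB2) had no inflachromene. The other 5 groups were treated for up to 6 days with inflachromene (ICM) at 10 µM, a compound that targets HMGB1 and HMGB2 and served to induce senescence. These were ICM replicates 1 and 2 (ICM 1-2), cells with an siRNA against SRRM2 or BANF1 (siSRRM2, siBANF1), ICM replicates 3 and 4 (ICM 3-4), and cells with an siRNA against CTCF (siCTCF). ICM 3-4 and siCTCF carry labels of another form than the remaining 10 libraries: their titles say IMR90, but their cell line fields read IMR91 and IMR92 for ICM 3 and 4 and IMR93 and IMR94 for siCTCF 1 and 2. They were kept as a set of their own, with no untreated library, and whether they are IMR90 cells was not tested. The labels do not say that the 2 libraries of a group came from separate cultures, so the p-values measure only the spread between these libraries, which may be technical.

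AP-1 is a dimer of basic leucine zipper proteins, usually a FOS-family with a JUN-family protein, that binds the sequence TGANTCA. Immediate-early genes such as FOS, FOSB, JUNB, EGR1 and EGR2 are transcribed within minutes of a growth signal, through kinases of the MAPK pathways that act on SRF with its partners at CArG boxes and on CREB or ATF proteins at cyclic AMP response elements, and their RNAs are short-lived. FOSL1, FOSL2 and JUND are expressed more steadily, JUN also drives its own promoter through JUN and ATF2 dimers, and ATF3 is a stress-response gene. In fibroblasts AP-1 is known for opening enhancers of secreted proteases, cytokines and matrix genes. In the GENCODE v29 annotation of GRCh38, FOS lies at chr14:75278774-75282230, FOSL1 at chr11:65892049-65900573, JUN at chr1:58780788-58784327, ATF3 at chr1:212565334-212620777 and EGR1 at chr5:138465490-138469315, all protein-coding. JUN and JUNB are genes of 1 exon.

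The libraries differed in ways that touch these genes. Gene counts per library ran from 22336161 to 58257456, and reads given to no gene made up 12.8% to 41.8%. Small non-coding RNAs took 3.19% to 6.05% of the counts across ICM 1-2, siSRRM2 and siBANF1, but at most 0.0081% elsewhere, so library composition and treatment cannot be told apart between ICM 1-2 and WT. ICM 1 and siBANF1 1 stood apart within their set: reads outside any feature were 16.3% and 18.4% there and 4.73% to 6.46% in the other 4 libraries, and mitochondrial mRNAs 0.454% and 0.754% against 0.0675% to 0.0874%. Mitochondrial mRNAs made up 2.7% to 3.54% in the 4 untreated libraries and 0.215% to 0.252% in ICM 3-4 and siCTCF, so they were lower in every ICM-treated library, and their part in the members' differences from WT was not tested. HMGB2 was 27.7 and 28.0 CPM (counts scaled to 1000000 gene counts per library) in WT and 3.18 and 3.52 CPM in siHMGB2. It was also below WT in every ICM-treated library, at 2.18 CPM (siBANF1 1) to 13 CPM (siCTCF 2). The siCTCF libraries had 71.5 and 23.0 CPM of CTCF where ICM 3-4 had 94.9 and 91.9 CPM. The BANF1 level in the libraries labelled siBANF1 (17.0 and 36.7 CPM) was not below that in ICM 1-2 (13.5 and 32.7 CPM). SRRM2 was lower in the libraries labelled siBANF1 (59.0 and 17.0 CPM) than in those labelled siSRRM2 (76.0 and 76.4 CPM), both below ICM 1-2 (237.8 and 112.4 CPM), so directions drawn from these 4 libraries rest on labels that these genes do not bear out. The deposited files of these 4 libraries are also named for the other knockdown of the pair, siBANF1 where the label says siSRRM2 and the reverse. BANF1 was not below ICM 1-2 in the libraries labelled siSRRM2 either (34.2 and 33.3 CPM). The labels are followed here, and which name is right was not settled. All 12 fibroblast markers averaged at least 1 CPM in every group, with summed levels of 29210 to 38090 CPM in WT, 5336 to 25600 CPM in ICM 1-2 and 2517 to 5086 CPM in ICM 3-4. Epithelial markers summed to at most 2.09 CPM, CDH5 was 0 in WT and CD3E in every group, while the endothelial and leukocyte lists were led by TEK and CD68. TEK averaged 74.6 CPM in WT, 154.5 CPM in ICM 1-2 and 9.09 CPM in ICM 3-4, and CD68 averaged 39.3, 70.6 and 99.4 CPM. The 6 endothelial markers summed to 75.2 to 89.7, 68.4 to 243.6 and 2.96 to 16.2 CPM in these groups and the 6 leukocyte markers to 40.0 to 40.6, 59.1 to 95.8 and 96.1 to 105.0 CPM, and the part of these in the results was not tested.

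Promoters of 9 of the 10 genes were found in the RefSeq table (GRCh38.p14), FOSL1 being the missing entry, and the 250 bases before the start of transcription are shown for EGR1, FOS, JUN and ATF3, because EGR1 and FOS were lower in ICM-treated cells while JUN and ATF3 were higher in ICM 3-4. They lie at chr5:138465229-138465478 (plus strand), chr14:75278578-75278827 (plus strand), chr1:58784048-58784297 (minus strand) and chr1:212565157-212565406 (plus strand), and are written 5′ to 3′ on the strand of the gene. The starts used here are those of RefSeq, which differ from the GENCODE v29 positions given above. By GENCODE the JUN stretch lies wholly within the gene, and the FOS and ATF3 stretches run past the first base of the gene. Capitals mark a CArG box, TGACATCA, or TGACGT on either strand (ACGTCA on the other).
EGR1: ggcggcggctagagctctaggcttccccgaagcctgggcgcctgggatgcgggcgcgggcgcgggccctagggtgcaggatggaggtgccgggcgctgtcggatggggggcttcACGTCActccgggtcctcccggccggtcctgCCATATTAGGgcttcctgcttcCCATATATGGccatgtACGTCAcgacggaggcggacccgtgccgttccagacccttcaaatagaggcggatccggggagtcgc
FOS: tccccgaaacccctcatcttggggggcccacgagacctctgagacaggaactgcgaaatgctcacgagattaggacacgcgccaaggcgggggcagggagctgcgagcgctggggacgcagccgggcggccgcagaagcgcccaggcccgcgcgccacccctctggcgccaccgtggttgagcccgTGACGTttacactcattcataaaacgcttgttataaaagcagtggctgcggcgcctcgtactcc
JUN: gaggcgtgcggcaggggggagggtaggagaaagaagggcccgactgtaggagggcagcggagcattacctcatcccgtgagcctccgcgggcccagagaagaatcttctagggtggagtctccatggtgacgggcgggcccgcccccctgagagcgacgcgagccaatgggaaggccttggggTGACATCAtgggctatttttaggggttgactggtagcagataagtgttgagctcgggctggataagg
ATF3: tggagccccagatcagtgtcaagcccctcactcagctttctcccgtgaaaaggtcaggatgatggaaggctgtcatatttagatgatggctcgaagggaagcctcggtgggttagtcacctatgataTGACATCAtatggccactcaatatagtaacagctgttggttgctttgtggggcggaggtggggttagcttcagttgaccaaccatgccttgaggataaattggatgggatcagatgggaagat
The EGR1 stretch held 2 CArG boxes, CCATATTAGG 105 to 96 bases before the start and CCATATATGG 83 to 74 bases before it. Such a box was present in 1.14% of 27305 promoters of the same length and in no other member of the 9 within these 250 bases. Bases further upstream were not searched, so this does not show that the other members lack CArG boxes. TGACATCA stood 67 to 60 bases before the RefSeq start used for JUN and 123 to 116 bases before that used for ATF3, and occurred in 2.45% of promoters. Only 1 start was used for each gene. ATF3 has 11 annotated transcripts, the start used lies near the upstream end of the gene, and promoters at other starts were not searched. TGACGT was found in 5 members, FOS (64 to 59 bases before the start), FOSB, FOSL2, JUND and EGR1, against 7.42% of all promoters, and the full element TGACGTCA only in JUND among the 9 (1.77% of promoters). No member held TGANTCA in this window, which 6.6% of promoters did. Both strands were searched, TGACGT is part of TGACGTCA, and TGACATCA and TGACGT were added to the search after the sequences had been read.

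**Figure D1:**
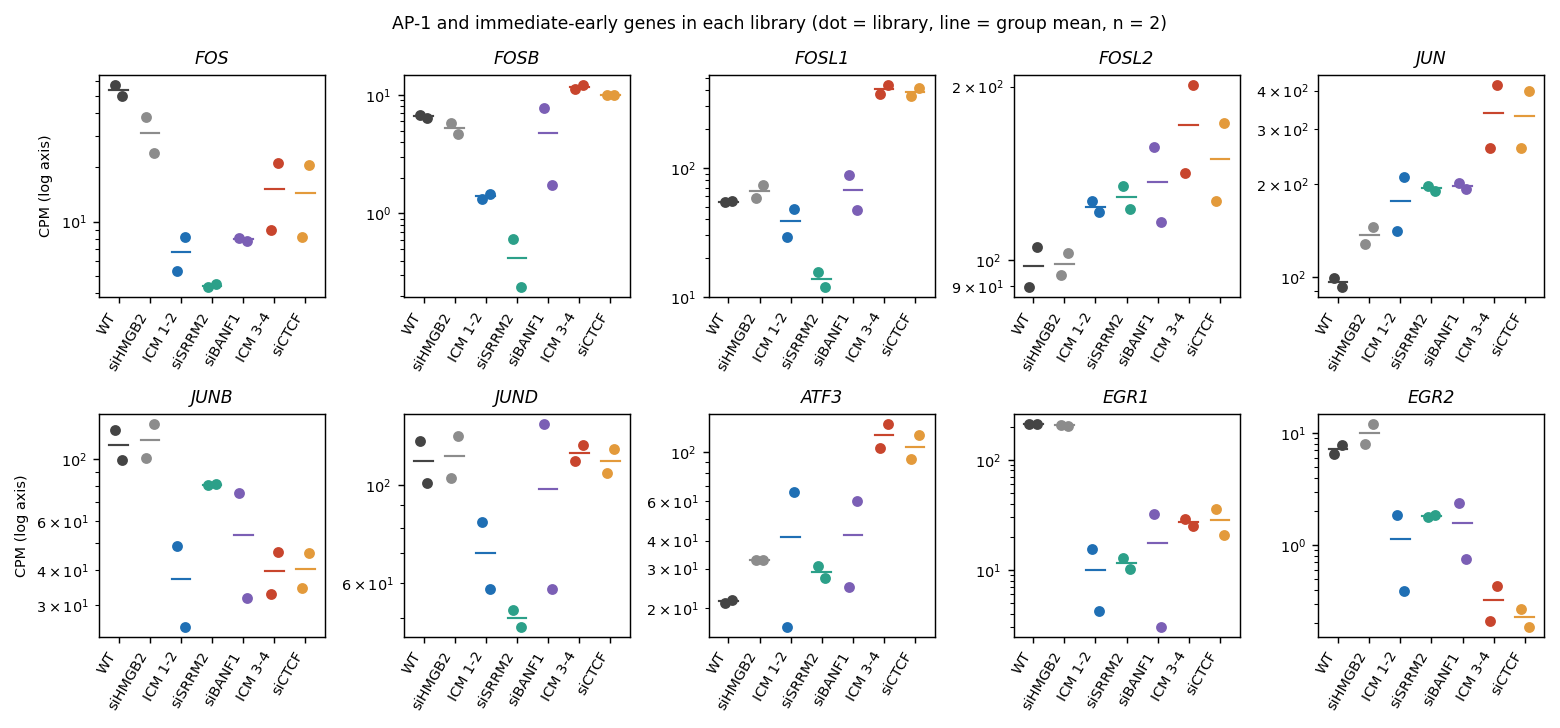
CPM of the 10 genes (vertical axis, log scale, scaled separately for each gene) in the 7 groups (horizontal axis). Each dot is a library and each line the mean of a group of 2. EGR1 is above 204 CPM in all 4 untreated libraries and at most 36.0 CPM in the 10 ICM-treated ones, and FOSL1 is at least 360.4 CPM in ICM 3-4 and siCTCF and at most 87.7 CPM elsewhere.

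The first question was how these genes stood in ICM-treated against untreated cells. In ICM 1-2, 5 of the 10 were lower than in WT and none was higher by edgeR (1, JUN, was higher at an unadjusted p under 0.05, and in DESeq2): FOS, FOSB, JUNB, EGR1 and EGR2, by 3.28-fold (JUNB) to 22.7-fold (EGR1). In ICM 3-4, FOS, JUNB, EGR1 and EGR2 were again lower than in WT, by 3.37-fold to 26.3-fold, while FOSL1, JUN and ATF3 were higher, by 2.96-fold to 6.28-fold. FOSL2 and JUND were called in neither comparison. Calls are those of edgeR's quasi-likelihood test with a threshold of 0.05 on the p-value after Benjamini-Hochberg adjustment over all 19126 genes tested. Over all genes 13.5% were called in ICM 1-2 against WT (1268 or 6.63% higher and 1312 or 6.86% lower) and 30.3% in ICM 3-4 against WT (2732 or 14.3% higher and 3064 or 16.0% lower; 3448 and 2449 with scaling by total counts), so the 7 members called of 10 in ICM 3-4 are read against a background in which calls were common. The median log2 difference of the 10 genes was -1.26 in ICM 1-2 and 0.19 in ICM 3-4, beside 0.10 and -0.02 over all genes. The ICM and WT libraries did not overlap for 9 of the 10 members in either comparison, beside 57.3% of all genes for ICM 1-2 and 75.9% for ICM 3-4, so separation of the 4 libraries was common. Both comparisons use the same WT libraries. These are bulk RNA samples, in which fewer expressing cells and less RNA per cell cannot be told apart.

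FOS, the founding member of its family, stood at 57.6 and 49.7 CPM in WT, 5.31 and 8.24 CPM in ICM 1-2, and 8.99 and 21.2 CPM in ICM 3-4. Every ICM-treated library lay below both WT libraries. FOS fell by 3.13 ± 0.48 (SE) on the log2 scale in ICM 1-2 (edgeR, adjusted p = 0.00326) and by 2.09 ± 0.46 in ICM 3-4 (adjusted p = 0.0086). FOSB, a close relative with the same rapid induction, was 6.76 and 6.39 CPM in WT and 1.33 and 1.46 CPM in ICM 1-2, where it fell by 2.37 ± 0.63 (edgeR, adjusted p = 0.0329). ICM 3-4 held 11.2 and 12.2 CPM of FOSB, above both WT libraries, a log2 difference of 0.58 ± 0.59 that was not called (adjusted p = 0.468). FOSB counts were low throughout, 11 to 309 per library.

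FOSL1 (FRA-1), which lacks the activation domain of FOS, showed the widest gap between the sets of ICM libraries. It was 54.0 and 55.2 CPM in WT, 29.3 and 47.7 CPM in ICM 1-2, and 372.4 and 440.5 CPM in ICM 3-4. The ICM 1-2 libraries lay just below WT (log2 difference -0.66 ± 0.33, not called, edgeR adjusted p = 0.212), whereas ICM 3-4 lay 6.28-fold above it. That rise, 2.65 ± 0.35 on the log2 scale, was called (edgeR, adjusted p = 0.00109) and remained between 2.60 and 2.71 when any of the 4 libraries was left out. FOSL2 (FRA-2), the other member without that domain, was 89.7 and 105.5 CPM in WT, 126.4 and 121.1 CPM in ICM 1-2 and 141.7 and 201.5 CPM in ICM 3-4. All 4 ICM libraries lay above both WT libraries, but neither difference was called (0.21 ± 0.26 and 0.56 ± 0.26, edgeR adjusted p = 0.606 and 0.118); scaling by total counts brought the second to 0.81 and an adjusted p of 0.0397, and a fit of the 4 libraries alone to 0.62 and 0.0399. Its antisense neighbour FOSL2-AS1 stayed at or below 2.49 CPM, and the counts' strand setting is not given in the sources used here.

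JUN, the usual partner of FOS proteins, was 99.4 and 92.7 CPM in WT, 141.1 and 209.9 CPM in ICM 1-2, and 260.9 and 417.8 CPM in ICM 3-4. Every ICM library exceeded both WT libraries. The difference was 0.72 ± 0.27 in ICM 1-2, not called (edgeR, adjusted p = 0.103; 0.77 and 0.0328 in DESeq2), and JUN rose by 1.57 ± 0.28 in ICM 3-4 (adjusted p = 0.00363). JUNB, a weaker activator that can oppose JUN, was 126.3 and 98.6 CPM in WT, 49.0 and 25.1 CPM in ICM 1-2, and 32.9 and 46.5 CPM in ICM 3-4. It fell by 1.71 ± 0.46 (edgeR, adjusted p = 0.0352) in ICM 1-2 and by 1.75 ± 0.46 (adjusted p = 0.0186) in ICM 3-4, so JUN and JUNB moved apart in ICM 3-4. JUNB shares its locus with HOOK2, which was 4.37 to 15.6 CPM. JUND, the steadily expressed member, was 125.4 and 100.7 CPM in WT, 82.4 and 58.3 CPM in ICM 1-2, and 113.2 and 122.8 CPM in ICM 3-4. It was called in neither comparison (log2 differences -0.81 ± 0.39 and -0.18 ± 0.39, edgeR adjusted p = 0.188 and 0.742), and the second turned to 0.062 with scaling by total counts. The ICM 3-4 values of JUND lay within the WT range.

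ATF3, a repressor or activator induced by stress, was 21.1 and 21.8 CPM in WT. ICM 1 and ICM 2 held 16.5 and 66.3 CPM, the first below and the second above WT, and their difference from WT was not called (0.77 ± 0.50, edgeR adjusted p = 0.318). It was 1.42 without ICM 1 (adjusted p = 0.0272) and -0.44 without ICM 2 (adjusted p = 0.504). In ICM 3-4 ATF3 was 103.8 and 133.2 CPM, above every WT, siHMGB2, ICM 1-2, siSRRM2 and siBANF1 library, and rose by 2.22 ± 0.52 against WT (edgeR, adjusted p = 0.0113).

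EGR1, a zinc-finger activator of growth-response genes, was 211.6 and 210.4 CPM in WT, 15.6 and 4.24 CPM in ICM 1-2, and 29.03 and 25.1 CPM in ICM 3-4. The WT libraries were nearly equal and all 4 ICM libraries lay far below them. EGR1 fell by 4.50 ± 0.98 in ICM 1-2 (edgeR, adjusted p = 0.0154) and by 3.20 ± 0.92 in ICM 3-4 (adjusted p = 0.026). Ranked by length-corrected level, it went from place 509 and 479 in WT to 5805 and 8870 in ICM 1-2 and 4363 and 4961 in ICM 3-4. EGR2, a relative known for its part in myelination, made up 0.609% to 17.4% of the summed length-corrected level of both EGR genes. It was at 6.56 and 7.82 CPM in WT, 1.86 and 0.387 CPM in ICM 1-2, and 0.209 and 0.434 CPM in ICM 3-4. The last pair rests on 5 and 11 reads. EGR2 fell by 2.76 ± 0.75 in ICM 1-2 (edgeR, adjusted p = 0.0366) and by 4.71 ± 0.86 in ICM 3-4 (adjusted p = 0.00402).

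**Figure D2:**
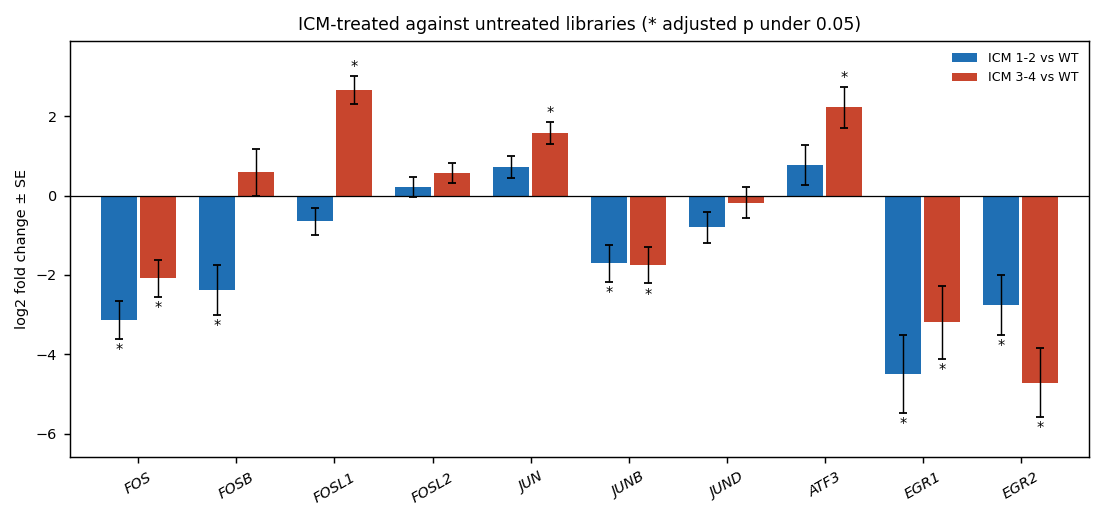
Log2 fold change against WT (vertical axis) of the 10 genes (horizontal axis) in ICM 1-2 (blue) and ICM 3-4 (red), with standard errors from edgeR's fit of all 14 libraries and an asterisk for an adjusted p under 0.05. FOS, JUNB, EGR1 and EGR2 are below 0 with an asterisk in both, and FOSL1, JUN and ATF3 are above 0 with an asterisk in ICM 3-4 alone, a pattern of calls and not a test of the difference between the sets.

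The calls in ICM 1-2 lean on the spread shared by all 14 libraries, and those in ICM 3-4 do not. With the 4 compared libraries alone, none of the 10 genes was called in ICM 1-2 against WT, nor was any other gene (adjusted p = 0.0757 for FOS), and only FOS stayed called without WT 1, WT 2 or ICM 2, with an adjusted p of at most 0.0248. Without ICM 1, FOS, JUNB, EGR1, EGR2 and ATF3 were called. In ICM 3-4 against WT, the 4 compared libraries alone gave 8 members called, the 7 and FOSL2, among 8648 genes. In the fit of all groups, 4 of the 10 genes were called whichever library was left out: FOSL1, JUN and EGR2 each time, with FOS as the other gene without WT 1, WT 2 or ICM 4 and ATF3 without ICM 3. Since ICM 3-4 have no untreated library of their own set, set and treatment cannot be told apart there.

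Levels of different genes were compared per length, as length-corrected transcript shares (TPM) over protein-coding genes. FOSL1 made up 47.6% and 48.4% of FOS-family TPM in WT and FOS 29.6% and 25.4%. In ICM 3-4, FOSL1 made up 88.9% and 86.3% and FOS 1.25% and 2.43%, at a family total of 847.5 and 1087 TPM against 272.9 and 288.0 TPM in WT. The ICM 1-2 libraries differed from both: FOS was 4.67% and 5.65%, while FOSL1 (44.3% and 56.2%) and FOSL2 (50.4% and 37.6%) shared the rest at a total of 191.4 and 198.2 TPM. FOSB never exceeded 2.02% of the family. Within the JUN family, JUNB and JUND each held 40.2% to 42.1% in WT and JUN 17.0% and 19.5%. JUN held 35.9% and 56.8% in ICM 1-2 and 48.3% and 56.3% in ICM 3-4, where JUNB was down to 11.8% and 12.2%. Over both families together FOSL1 was the largest item in ICM 3-4, at 52.7% and 48.7%, a place that JUNB held in both WT libraries, at 30.8% and 27.8%. EGR1 was 305.8 and 319.1 TPM in WT, a level near that of JUNB (314.8 and 257.9 TPM) and JUND (305.4 and 257.1 TPM).

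**Figure D3:**
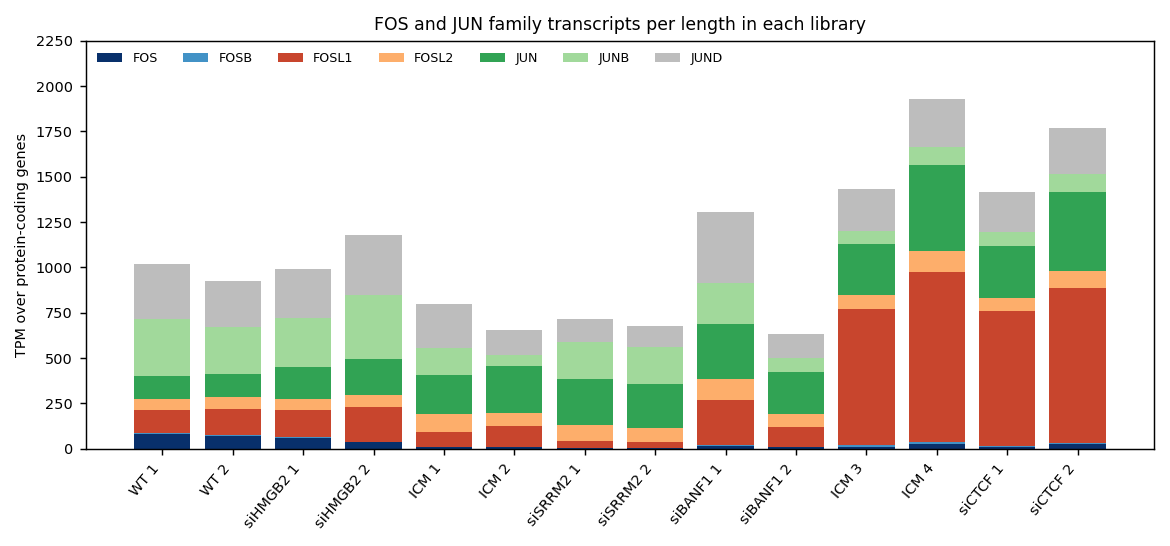
Summed TPM over protein-coding genes (vertical axis) of the FOS and JUN family genes in each of the 14 libraries (horizontal axis), with a colour for each gene. FOSL1 (red) fills 48.2% to 52.7% of the bar in ICM 3, ICM 4 and both siCTCF libraries and 4.23% to 19.0% in the other 10.

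The ICM 3-4 and ICM 1-2 libraries were then compared directly, a comparison added after the data were seen, because they share the treatment label. FOSL1 was 9.88-fold higher in ICM 3-4 (log2 difference 3.31 ± 0.36, edgeR adjusted p = 0.000667) and FOSB 7.76-fold higher (2.96 ± 0.64, adjusted p = 0.0114). These were the 2 members called of 10, against 19.5% of 19126 genes (8.53% higher). The libraries of the sets did not overlap for 8 of the 10 members, all higher in ICM 3-4 (JUNB and EGR2 overlapped), beside 56.0% of all genes in either direction. JUN, ATF3, EGR1 and FOS had positive differences of 0.84 to 1.45 that were not called (edgeR, adjusted p = 0.0526 to 0.3), and EGR2 one of -1.95 ± 0.82 (adjusted p = 0.113). These depended on the method: DESeq2 also called JUN (0.83, adjusted p = 0.0152) and ATF3 (1.45, adjusted p = 0.0205). Without a filter on low counts edgeR also called ATF3, EGR1 and EGR2. JUNB was near equal, at -0.041 ± 0.45 (0.10 with scaling by total counts). Without ICM 1 only FOSL1 was called (3.06, adjusted p = 0.00569), as with the 4 compared libraries alone (3.26, adjusted p = 0.0422). Without ICM 2 the number was 5, and JUN (1.07), ATF3 (2.65) and EGR2 (-2.71) were among them. Small non-coding RNA content and the summed fibroblast markers differed between these sets too, and their part in the result was not tested.

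In untreated cells, the siHMGB2 libraries addressed how these genes stood after knockdown of HMGB2, a protein that ICM binds. No library is labelled as given a control siRNA. Delivery of an siRNA and loss of its target therefore cannot be told apart, here or in the knockdowns set against ICM. FOS was lower than in WT, and JUN and ATF3 were higher, by 1.65-fold for FOS, 1.49-fold for JUN and 1.6-fold for ATF3, and the other 7 were not called. Over all genes 10.9% of 15338 were called (941 or 6.14% higher and 727 or 4.74% lower; 786 and 999 with scaling by total counts), against 3 of the 10 members. FOS was 38.2 and 24.1 CPM in siHMGB2, below both WT libraries, and fell by 0.72 ± 0.18 (edgeR, adjusted p = 0.0191). JUN was 128.1 and 145.2 CPM and rose by 0.57 ± 0.13 (adjusted p = 0.0117), and ATF3 was 32.9 and 32.8 CPM and rose by 0.68 ± 0.13 (adjusted p = 0.00445). The groups did not overlap for these 3 genes, nor for 4 of the 7 that were not called, and 54.5% of all genes separated in the same way.

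EGR1, the gene furthest down in ICM 1-2, was 207.8 and 204.2 CPM in siHMGB2, against 211.6 and 210.4 CPM in WT (0.030 ± 0.13, edgeR adjusted p = 0.928; -0.034 with scaling by total counts). JUNB (100.9 and 133.2 CPM) and JUND (103.4 and 128.7 CPM) overlapped with WT. FOSL1 was 58.7 and 73.9 CPM, above both WT libraries, but was not called (0.35 ± 0.14, adjusted p = 0.141), and neither was EGR2 at 7.92 and 12.1 CPM (0.54 ± 0.22, adjusted p = 0.143). The 3 calls come from a fit of these 4 libraries. In the fit of all 14 libraries no gene was called (adjusted p = 1 for all 10 members), and 1 of the 10 was called without WT 1 (JUN) or siHMGB2 2 (ATF3), 2 without WT 2 (FOS and ATF3), and 5 without siHMGB2 1 (FOS, FOSL1, JUN, ATF3 and EGR2).

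**Figure D4:**
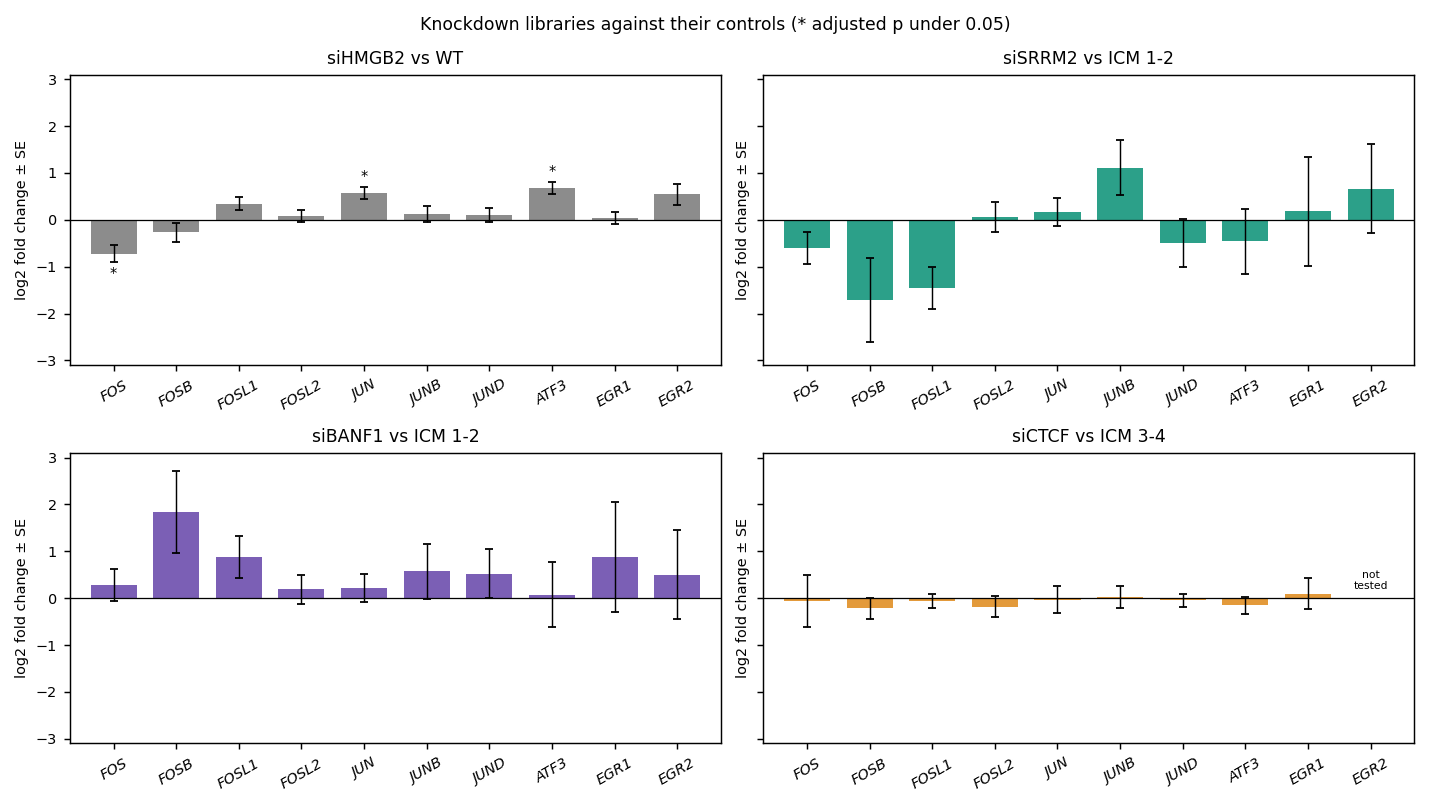
Log2 fold change ± SE (vertical axis) of the 10 genes (horizontal axis) in siHMGB2 against WT, siSRRM2 and siBANF1 against ICM 1-2, and siCTCF against ICM 3-4, each from edgeR's fit of its own set, with an asterisk for an adjusted p under 0.05. Asterisks stand on FOS, JUN and ATF3 in siHMGB2, and the siCTCF bars lie between -0.22 and 0.093.

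Among ICM-treated cells, none of the 10 genes was called in the libraries labelled siSRRM2 or siBANF1 against ICM 1-2. Of all 17890 genes 0.00% were called by edgeR in either comparison. At an unadjusted p under 0.05 edgeR found 1030 genes for siSRRM2 and 158 for siBANF1, and DESeq2 called 122 and 0, none of them a member. On simulated counts the siSRRM2 comparison in this fit recovered none of the changed genes, so a count of 0 does not show that genes were unchanged. The libraries labelled siSRRM2 lay within 1.32-fold of each other for every member but FOSB (2.55-fold). They had the lowest group means of FOS, FOSB, FOSL1 and JUND. FOSL1 was 15.7 and 11.9 CPM there against 29.3 and 47.7 CPM in ICM 1-2 (-1.46 ± 0.45, unadjusted p = 0.0207, adjusted p = 0.854), and FOSB 0.607 and 0.238 CPM against 1.33 and 1.46 CPM (-1.71 ± 0.89, adjusted p = 0.854). FOS (4.31 and 4.48 CPM) and JUND (52.2 and 47.9 CPM) also lay below both ICM libraries, and JUNB (80.7 and 81.0 CPM) above both (1.11 ± 0.59, adjusted p = 0.854). In all, 5 of the 10 genes had groups that did not overlap, beside 42.4% of all genes.

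The 2 libraries labelled siBANF1 differed from each other more than those labelled siSRRM2 did for most members, though not for FOS (1.04-fold in both groups). EGR1 was 31.9 CPM in siBANF1 1 and 3.06 CPM in siBANF1 2, FOSB 7.76 and 1.73 CPM, JUND 137.2 and 58.3 CPM, and FOSL1 87.7 and 47.5 CPM. ICM 1 and ICM 2 differed in the same direction for EGR1 (15.6 and 4.24 CPM), JUNB, JUND, EGR2 and FOSL2. They differed in the opposite one for FOSL1, FOSB (1.33 and 1.46 CPM), FOS and JUN. ATF3 went the other way in both groups, at 16.5 and 66.3 CPM in ICM 1 and 2 and 24.8 and 60.04 CPM in siBANF1 1 and 2. ICM 1 and siBANF1 1 are the libraries with many reads outside annotated features, and the part of this in the members' values was not tested. Every member's difference from ICM 1-2 was above 0, from 0.076 ± 0.69 (ATF3) to 1.84 ± 0.87 (FOSB), with an edgeR adjusted p of 1 for all 10, but without siBANF1 1 it was below 0 for FOSL2, JUNB, JUND, EGR1 and EGR2, as low as -1.79 for EGR1. Between same-numbered libraries, siBANF1 over ICM, the ratio was above 1 in both pairs for JUNB (1.54 and 1.26), EGR2 (1.28 and 1.95) and FOSB (5.83 and 1.19). For JUND it was 1.67 and, after rounding, 1. The share of all genes with both ratios above 1 was not computed.

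Knockdown of CTCF, the chromatin loop anchor, was compared with ICM 3-4. None of 9 members was called, and EGR2, with 5 to 11 reads per library, was not tested. Of all 14704 genes 0.00% were called by edgeR, 18 had an unadjusted p under 0.05, and DESeq2 called 0. The fit had 2 residual degrees of freedom and did not call CTCF itself, so a count of 0 does not show that genes were unchanged. In siCTCF, FOSL1 was 360.4 and 412.6 CPM, JUN 261.7 and 398.4 CPM, and ATF3 92.5 and 118.6 CPM, all overlapping with ICM 3-4. Differences ran from -0.22 ± 0.23 (FOSB) to 0.093 ± 0.33 (EGR1), with standard errors of 0.14 for FOSL1 and JUND and 0.56 for FOS. FOS was 8.19 and 20.6 CPM in siCTCF and 8.99 and 21.2 CPM in ICM 3-4, so its spread within each group was larger than the difference between them. Taken in title order, the libraries of both groups deviated together, and with a replicate block the FOS difference was -0.073 ± 0.16. Ratios in that order, siCTCF over ICM 3-4, were 0.911 and 0.97 for FOS, 0.891 and 0.89 for ATF3 and 0.893 and 0.858 for FOSL2. For JUNB (1.05 and 0.993) and EGR1 (1.24 and 0.831) they went both ways, and the labels do not give this pairing. FOSB, at 9.98 and 9.93 CPM, was the only member whose libraries did not overlap, beside 15.8% of all genes. CTCF itself was 71.5 CPM in siCTCF 1 and 23.0 CPM in siCTCF 2, so the depletion differed between the libraries.

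Across the 7 groups, ordered by mean CPM, FOS ran from WT and siHMGB2 (apart from each other and from the rest) through ICM 3-4 and siCTCF, which overlapped, to siBANF1, ICM 1-2 and siSRRM2. EGR1 had the same 2 groups on top, at 204.2 to 211.6 CPM, and the 5 ICM-treated groups, from siCTCF (20.9 to 36.0 CPM) down to ICM 1-2 (4.24 to 15.6 CPM), each overlapped with the next in order. FOSL1, JUN, ATF3 and FOSL2 had ICM 3-4 and siCTCF on top, overlapping with each other, and FOSB had them on top without overlap. WT was lowest of all groups for JUN, FOSL2 and ATF3. For JUND, 6 groups each overlapped with the next in order, and siSRRM2 lay apart below them. Over the 14 libraries, the log2 levels of EGR1 and FOS had r = 0.84, those of JUNB and EGR2 0.93, and those of FOSB and FOSL1 0.88, while JUN and EGR2 had r = -0.78 and ATF3 and JUNB -0.69. These correlations describe libraries that share sets and groups, and carry no test.

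The wider pathway was read from gene lists that were chosen with earlier results of these data known. Among 29 tested of 30 other immediate-early genes, 9 fell and 0 rose in ICM 1-2 against WT by edgeR (13.5% of all genes were called, 6.86% lower). The median log2 difference was -1.20, beside 0.10 over all genes. At an unadjusted p under 0.05, 14 were lower and 2 higher, and DESeq2 called 14 and 1. Over all 19126 genes, 5852 had an unadjusted p under 0.05 and DESeq2 called 4010. NR4A2, an orphan nuclear receptor, fell by 3.11 ± 0.53 (edgeR, adjusted p = 0.00564), and the mRNA-decay factors ZFP36L2 (-2.33 ± 0.44) and ZFP36 (-1.92 ± 0.53) were lower too. In ICM 3-4 the list was divided, with 6 higher and 7 lower (median -0.10; 30.3% of all genes were called). PPP1R15A (GADD34), which reverses the block of translation under stress, went from 150.9 and 138.3 CPM in WT to 1345 and 1502 CPM, while CCN2 (-3.15), SOCS3 (-2.96) and NR4A1 (-2.77) fell. In siHMGB2, 4 of 28 tested rose and 4 fell (10.9% of all genes were called), NR4A2 (-1.57), SOCS3 and PLK2 among the latter and KLF2 among the former.

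Feedback inhibitors of the MAPK pathways, 15 genes, had 2 higher and 1 lower in ICM 1-2 and 3 higher and 3 lower in ICM 3-4, beside 13.5% and 30.3% of all genes called. DUSP6, a phosphatase of ERK whose own transcription follows ERK activity, was 73.0 and 66.2 CPM in WT, 151.2 and 237.1 CPM in ICM 1-2, and 31.6 and 30.1 CPM in ICM 3-4. It rose in the first (1.33 ± 0.24, edgeR adjusted p = 0.0067) and fell in the second (-1.41 ± 0.24, adjusted p = 0.003), and the direct difference between the sets was -2.74 ± 0.25 (adjusted p = 0.000256). SPRY1 fell in ICM 1-2 (-1.24), ICM 3-4 (-3.25) and siHMGB2 (-0.99). NAB1, a corepressor of EGR proteins, fell by 3.81 ± 0.88 in ICM 3-4 (adjusted p = 0.011), where SPRY2 rose by 1.98 ± 0.46.

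Of 20 tested kinases and ternary complex factors upstream, 1 was higher and 2 were lower in ICM 1-2, and 2 were higher and 2 lower in ICM 3-4, shares near or below those over all genes. BRAF rose by 0.90 ± 0.23 and MAP2K7 fell by 1.64 ± 0.28 in the first, and MRTFA, a coactivator of SRF, rose by 1.45 ± 0.22 and MAP2K1 rose as well in the second. Among 13 tested of 14 AP-1 partners and related bZIP factors none was called in ICM 1-2 (edgeR; 13.5% of all genes were; 2 were lower at an unadjusted p under 0.05, and DESeq2 called 1), and 1 rose and 2 fell in ICM 3-4, namely CREM (1.67 ± 0.44), JDP2 (-3.36 ± 0.96) and NFIL3 (-2.09 ± 0.51). The 16 genes known as AP-1 targets in fibroblasts had none called in ICM 1-2 by edgeR, while 3 were higher and 2 lower at an unadjusted p under 0.05, the same numbers as DESeq2 called. Over all 19126 genes, 5852 passed that unadjusted threshold and DESeq2 called 4010. In ICM 3-4, where FOSL1 and JUN rose, 2 of them rose and 6 fell, with a median of -1.0 (30.3% of all genes were called). IL6 went from 504.6 and 288.0 CPM in WT to 0.669 and 0.631 CPM, and IL1B (-7.75), LIF (-4.32) and PLAU, the urokinase protease (-4.32), fell with it (edgeR, adjusted p = 0.0139, 0.0126 and 0.00835). In siHMGB2, 2 of the 16 rose and 5 fell (10.9% of all genes were called), the latter including MMP3 (-1.88), LIF (-1.38) and MMP1 (-1.28). No list gene was called by edgeR in the libraries labelled siSRRM2 or siBANF1 or in siCTCF. At an unadjusted p under 0.05 siSRRM2 had 2 higher and 2 lower among both the other immediate-early genes and the feedback inhibitors, 2 lower upstream factors and 1 higher AP-1 target, siBANF1 had 1 higher AP-1 target, and siCTCF had 0. Over all 17890 genes 1030 passed that threshold for siSRRM2 and 158 for siBANF1, and 18 of 14704 did for siCTCF. DESeq2 called 1 list gene, a feedback inhibitor that was lower in siSRRM2.

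Genes outside the list with the most similar pattern were ranked by Pearson's r of log2 levels over the 14 libraries among 9913 genes. FOS was most like EZH2 (r = 0.969), RBM25 (0.965) and ETV4 (0.957), EGR1 like ZNF503 (0.986), MARCKSL1 (0.986) and C20orf96 (0.984), and FOSL1 like PPP3R1 (0.991), ITPRIP (0.989) and DUSP7 (0.989). JUN was most like ZSCAN22 (0.970), SLC35E4 (0.946) and HMGXB3 (0.938), and ATF3 like YKT6 (0.980), GET4 (0.978) and TAF5L (0.977). The libraries share sets and groups, and the highest of 9913 values is high by selection.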

How the data were processed

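Per the submitters' processing notes, STAR 2.7.3a, HTSeq 0.12.4, DESeq2 1.36.0 and the hg38 build were used; the strand setting is not given in the sources used here. The deposited files hold raw counts of reads per gene symbol as the authors made them, a file per library. CPM was computed here from each file's gene counts, without the 5 lines for reads given to no gene (12.8% to 41.8% of reads), and TPM with exon lengths of 18581 protein-coding symbols from GENCODE v29. Depth was 22336161 to 58257456 gene counts.

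Genes were filtered with filterByExpr, scaled by TMM and tested with edgeR 4.0.16 (R 4.3.3) by quasi-likelihood at a Benjamini-Hochberg adjusted p under 0.05 over all genes tested. ICM 1-2 and ICM 3-4 were compared with WT in a fit of all 14 libraries (7 residual degrees of freedom). Each knockdown was compared within its own set (2 or 3 degrees of freedom). Scripts were tested on simulated data. Alternatives were other scalings, no filter, DESeq2 1.42.0, other libraries in the fit, a replicate block and leaving out each library. The members and gene lists were chosen with earlier results of these data known. All 10 members are named, and up to 4 called genes per list, those with the largest change at a mean of at least 10 CPM (a gene that this rule names is not reported here); likeness was ranked on log2(CPM + 1) among genes averaging 5 CPM or more.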

Additional observations from a re-analysis of the deposited data

Results flagged for a closer look

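FOSL1 and FOSB differed between the 2 sets of libraries that carry the same ICM label. Against WT, FOSL1 was 2.65 in ICM 3-4 and -0.66 in ICM 1-2 on the log2 scale, and the test of the difference itself gave 3.31 (edgeR, adjusted p = 0.000667). For FOSB the values were 0.58 and -2.37, and the difference was 2.96 (edgeR, adjusted p = 0.0114). All 4 libraries showed the direction for both genes, with both ICM 3-4 libraries above both ICM 1-2 libraries. The FOSB call was lost without ICM 1 (adjusted p up to 0.0622 when a library was left out) and in the fit of the 4 libraries alone (0.0586), and the FOSL1 call was kept in each of these. Small non-coding RNAs made up 3.19% and 6.05% of gene counts in ICM 1-2 and at most 0.00761% in ICM 3-4, and the part of this difference in the result was not tested.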

How the results depend on the processing

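All 17 member results that were called kept their direction under every alternative, and of 195 such values 41 missed the threshold. Over all results, 698 of 789 values kept direction and side of the threshold, 15 gained a call and 35, none of a called result, changed sign. For ICM 1-2 against WT, genes called numbered 2580, with 3883 without a filter, 4010 by DESeq2, 0 from the 4 compared libraries (where members called were 0) and 545 to 3612 genes and 1 to 5 members when a library was left out. For ICM 3-4 against WT, 5796 genes and 7 members were 8648 and 8 from the 4 compared libraries, and 1922 to 2602 genes and 4 members when a library was left out. For siHMGB2, 1668 genes and 3 members were 0 and 0 in the fit of all 14 libraries, and 610 to 1929 genes and 1 to 5 members when a library was left out. For siSRRM2, 0 genes were 122 by DESeq2 and 34 in the fit of all 14. Between ICM 3-4 and ICM 1-2, 3739 genes were 136 from the 4 libraries and 1206 to 6057 with a library left out, and 2 members were 5 without a filter, 4 by DESeq2, 1 from the 4 libraries and 1 to 5 with a library left out; these alternatives were chosen after seeing the data. Scaling by total counts moved the median of all genes by 0.14 (ICM 1-2) and 0.19 (ICM 3-4), and turned JUND in ICM 3-4 to 0.062, EGR1 in siHMGB2 to -0.034 and JUNB between the ICM sets to 0.10. With all 4 ICM libraries as a group FOSL1 was 1.79 against WT (adjusted p = 0.201), and FOSB, called in ICM 1-2, was -0.25 (adjusted p = 0.866). Log2 differences of uncalled members that changed sign when a library was left out ranged as follows. In ICM 1-2, the range was ATF3 -0.44 to 1.42. In siHMGB2, the ranges were FOSL2 -0.029 to 0.20, JUNB -0.10 to 0.32, JUND -0.073 to 0.28. In siSRRM2, the ranges were JUN -0.053 to 0.40, FOSL2 -0.032 to 0.15, ATF3 -1.13 to 0.76, EGR1 -0.50 to 1.5, EGR2 -0.093 to 2.29. In siBANF1, the ranges were ATF3 -0.60 to 1.29, EGR2 -0.67 to 2.15, FOSL2 -0.15 to 0.45, JUNB -0.30 to 1.23, JUND -0.34 to 1.06, EGR1 -1.79 to 2.22. In siCTCF, the ranges were JUNB -0.17 to 0.27, FOS -0.81 to 0.64, FOSL1 -0.15 to 0.031, FOSL2 -0.39 to 0.054, JUN -0.31 to 0.31, EGR1 -0.41 to 0.47. Between the ICM sets, the range was JUNB -0.49 to 0.62. The cause was not tested. A replicate block changed the members' calls only by adding EGR2 in siHMGB2 (0.52, adjusted p = 0.0405), with 2443 genes called there, 2187 in ICM 1-2, 4968 in ICM 3-4, 0 in siSRRM2 and siBANF1 and 4 in siCTCF. Same-numbered libraries deviated together across genes in siBANF1 and ICM 1-2 (r = 0.87) and, by title order, in siCTCF and ICM 3-4 (0.86), and with r = -0.26 (ICM 1-2 and WT) to 0.17 in the other comparisons. The labels tie no number to a shared culture or day and there are 2 pairs each, so no pairing was taken. Leaving out a library of siBANF1 or siCTCF unbalances such libraries. ICM 3 and 4 share no number with WT or siCTCF and were blocked in title order. The crossed pairing of ICM 1-2 with WT called 2408 genes and 5 members. Depth limits EGR2, with 5 to 11 reads per library in ICM 3-4 and siCTCF, and FOSB, with 11 and 27 in siSRRM2. With 2 libraries a group, differences within the spread of ICM 1 and 2 were not detectable.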
